A study of Mus musculus with 13 samples.

Results

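miR-128-3p (array name mmu-miR-128-3p) is 1 of the 1122 mouse microRNAs (miRNAs) measured on 13 arrays, and it was chosen by its measured levels on these arrays, which fall stepwise from thymocytes to primary leukaemia to a leukaemia line. Those levels are therefore described below without a test. All cells are of the C57BL/6 strain. DN cells are CD4- CD8- thymocytes and DP cells are CD4+ CD8+ thymocytes, both sorted from normal thymus. T-cell acute lymphoblastic leukaemia is abbreviated T-ALL. ES cells are T-ALL of an early stage and LS cells T-ALL of a late stage, in each case CD4+ CD8+ cells taken by sorting from spleens of chimeric mice. The bone marrow given to those mice was transformed with N1ICD, the active intracellular part of Notch1. Each of these 4 groups has 3 arrays of separate biological replicates, and M295, a cultured T-ALL line from C57BL/6, has 1 array. The labels give no age, name no sorting marker of leukaemic cells beyond CD4 and CD8, and do not say how N1ICD was driven. Thymocytes came from thymus and the primary T-ALL cells from spleen, so effects of disease and of tissue cannot be told apart.

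A miRNA is a short RNA that guides Argonaute proteins to messenger RNAs, mainly by pairing through its seed, the bases after the first, and so lowers their translation and stability. miR-128-3p is best known as a brain-enriched miRNA of neurons. It is also among the miRNAs that separate human acute lymphoblastic from acute myeloid leukaemia, and in human T-ALL it has been described as oncogenic through repression of PHF6, a tumour suppressor. The mature strand is cut from the 3′ arm of a pair of hairpins. Mir128-1 lies in R3hdm1, and Mir128-2 lies in Arpp21, a gene expressed in immature thymocytes.

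The mature sequences are shown because the seed sets which messenger RNAs a miRNA can pair with, and because an array probe cannot tell which hairpin an identical mature strand came from. Sequences are those of RefSeq (GRCm38.p6), 5′ to 3′. Capitals in the first 3 mark the 7 bases of the miR-128-3p seed, at bases 2 to 8 of miR-128-3p and at bases 3 to 9 of the 2 others.
miR-128-3p: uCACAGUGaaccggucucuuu
miR-27a-3p: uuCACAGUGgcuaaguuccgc
miR-27b-3p: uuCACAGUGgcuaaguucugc
Of the 1679 mature mouse sequences in the RefSeq table, 1 has these bases at positions 2 to 8, namely miR-128-3p itself. The 2 that carry them at positions 3 to 9 are miR-27a-3p and miR-27b-3p, so their own seeds are shifted by 1 base.

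The hairpins show the same 21 bases, in capitals, in different surroundings. Mir128-1 is at chr1:128202361-128202430 on the plus strand (GRCm38.p6), 70 bases long and inside R3hdm1. Mir128-2 is at chr9:112118636-112118711 on the minus strand, 76 bases long and inside Arpp21.
Mir128-1: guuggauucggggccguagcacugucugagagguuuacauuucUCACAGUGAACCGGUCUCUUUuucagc
Mir128-2: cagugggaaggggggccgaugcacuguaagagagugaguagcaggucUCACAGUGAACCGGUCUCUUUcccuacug
The 5′ arms differ and have names and probes of their own.
miR-128-1-5p: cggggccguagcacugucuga
miR-128-2-5p: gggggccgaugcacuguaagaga
Both 5′ arms were above background on 0 of 13 arrays, so the arrays give no share of either hairpin in the miR-128-3p signal.

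Levels are log2 of the background-subtracted fluorescence intensity divided by each array's 75th percentile over 108 miRNAs that were above background on all 12 primary arrays. A level of 0 is thus the signal at that percentile, and levels are compared between arrays for a miRNA, not between miRNAs. Of the 1122 mouse miRNAs, 229 were tested, those with a signal above background throughout 1 or more of the groups, and miR-128-3p is among them.

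A pair of the arrays stands apart from the others. ES 3 had a miR-223-3p level of 2.85, against at most -4.89 on the other 11 primary arrays. miR-223-3p is a miRNA of myeloid cells. ES 1 had the noisiest background, with an SD of 19.0 intensity units over its negative control spots against 5.21 to 7.11 on the other arrays, and 115 miRNAs above background against 157 to 257 on the other arrays. Correlations between arrays of a group across miRNAs ran from 0.991 to 0.998 in DN and DP, from 0.833 to 0.948 in ES, and from 0.913 to 0.957 in LS.

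miR-128-3p was highest in DP thymocytes, with levels of 1.67, 1.68 and 1.45 (mean 1.60 ± 0.13, SD, n = 3). DN thymocytes had 1.25, 1.33 and 1.09 (mean 1.22 ± 0.12, SD, n = 3). The lowest DP array lay 0.12 above the highest DN array, so the thymocyte groups did not overlap but lay close together. DN and DP were also separate for other miRNAs, among them let-7a-5p, miR-15a-5p and miR-21-5p. The share of tested miRNAs for which this holds was not counted.

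ES cells had levels of 0.29, -0.0039 and -1.07 (mean -0.26 ± 0.71, SD, n = 3). LS cells had -0.68, 0.26 and -0.10 (mean -0.18 ± 0.47, SD, n = 3). ES and LS overlapped over most of their range, ES 3 was the lowest primary array, and all 6 T-ALL arrays were below all 6 thymocyte arrays. The highest T-ALL array, ES 1, was 0.80 below the lowest thymocyte array, DN 3.

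M295 had a level of -2.57, which is 1.49 below ES 3, the lowest primary T-ALL array. The line has 1 array, so this distance has no replicate check. On the linear scale, with the DP mean at 100%, DN was at 77.1%, ES at 27.6%, LS at 29.3% and M295 at 5.59%. Single T-ALL arrays spanned 15.7% (ES 3) to 40.3% (ES 1). In sorted bulk cells, fewer cells that make a miRNA and less of it per cell cannot be told apart.

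**Figure D1:**
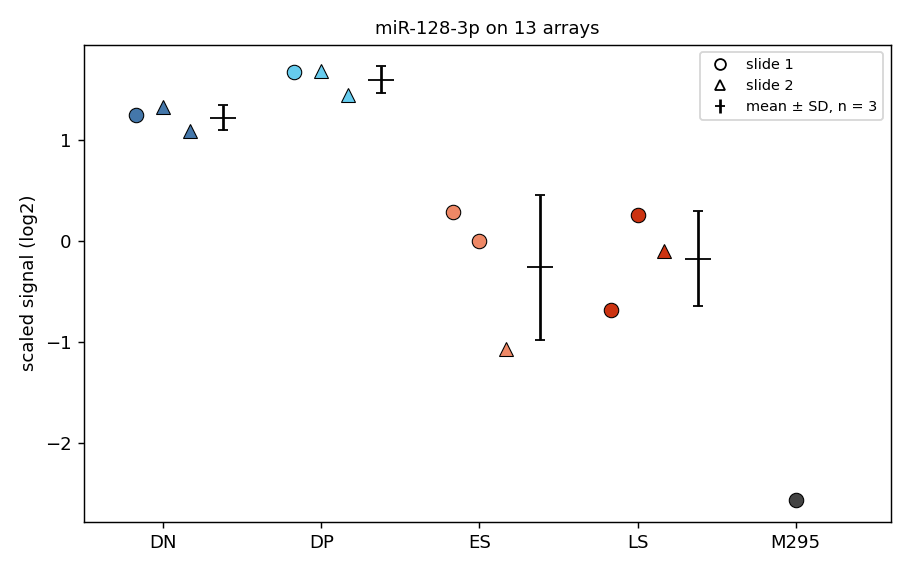
Scaled signal of miR-128-3p (log2, vertical axis) on each of 13 arrays, by group; circles are arrays of slide 1, triangles of slide 2, and crosses with bars are group means ± SD (n = 3, none for M295). The 6 thymocyte arrays lie at 1.09 or above, the 6 primary T-ALL arrays between -1.07 and 0.29, and M295 at -2.57.

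The step sizes were as follows, with standard errors from a linear model of the 12 primary arrays (limma), whose pooled spread includes the wide ES group. T-ALL minus thymocytes was -1.63 on the log2 scale (SE 0.24, n = 6 and 6), which is 3.09-fold lower. Against DP thymocytes, which carry the same CD4 and CD8 markers, ES differed by -1.86 (3.63-fold lower) and LS by -1.77 (3.42-fold lower). Against DN thymocytes the differences were -1.48 for ES and -1.40 for LS. These comparisons share their thymocyte arrays and are not separate evidence of a fall.

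The 2 thymocyte groups lay closer together, as did the 2 primary T-ALL groups. DN minus DP was -0.38 (SE 0.34), which exceeds the SD of 0.12 to 0.13 within either thymocyte group but is close to the pooled standard error. LS and ES differed by 0.09 (SE 0.34), less than the spread of either group, and the 95% interval of -0.68 to 0.85 covers differences in both directions. The sign turned, to -0.65, when each array was scaled by its 75th percentile over all mouse miRNAs. M295 differed from the mean of the 6 primary T-ALL arrays by -2.35, which is 5.08-fold lower.

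ES 3 sets part of these sizes. Without it the T-ALL difference from thymocytes was -1.43, the ES mean was 0.14, and the lowest T-ALL level, now LS 1 at -0.68, was 1.88 above M295. Without ES 3, LS minus ES was -0.32, and without LS 2 it was -0.13, so the order of ES and LS turned with the arrays used. Leaving out the noisy ES 1 gave -1.77 for T-ALL against thymocytes. The part of the miR-223-3p signal or of the background noise in the spread of miR-128-3p among T-ALL arrays was not tested.

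The arrays were on 2 slides, scanned on 1 day, and both slides held all 4 primary groups. The only thymocyte arrays on slide 1 were DN 1 and DP 1. T-ALL minus thymocytes was -1.49 within slide 1, -1.97 within slide 2 and -1.73 with slide as a block. The ES difference from DP was -1.53 on slide 1 and -2.63 on slide 2, where ES is the ES 3 array alone. LS against ES went from -0.35 on slide 1 to 0.97 on slide 2. M295 was on slide 1, where it differed by -2.53 from the primary T-ALL arrays of that slide.

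miR-128-3p was measured well within the range of the scanner. Its 2 probes have 20 spots each per array, of which 16 to 20 were kept, and every kept spot was well above background, including those of M295. No spot was saturated. The coefficient of variation over spots was 2.14 to 6.09%, so spot noise is small beside the difference between arrays of a group. Unscaled intensities ran from 369 arbitrary units on M295, through 1029 on ES 3 and 2880 on DN 3, to 7226 on DP 2. The M295 level remained 5.03 log2 units above the lowest measurable level, set at -7.59.

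Both probes gave the same picture. T-ALL minus thymocytes was -1.65 by probe 1 and -1.62 by probe 2, and M295 minus primary T-ALL was -2.33 and -2.35. Probe 2 was brighter than probe 1 by 0.81 to 1.01 log2 units on all arrays. The probes share a target, so they check the spots and not the samples.

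**Figure D2:**
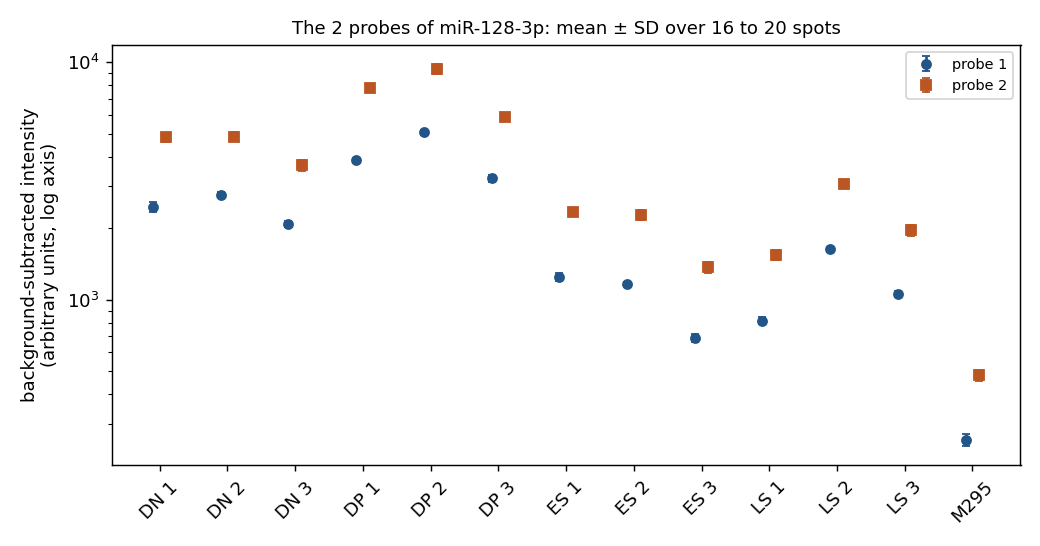
Background-subtracted intensity (arbitrary units, log axis, not scaled between arrays) of both miR-128-3p probes on each of the 13 arrays; points are means and bars SD over 16 to 20 spots. Both probes rank M295 lowest and ES 3 next, and their intensities differ by 0.81 to 1.01 log2 units throughout.

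Another scaling changes how clearly the groups separate. With the 75th percentile taken over all mouse miRNAs on the array, the lowest thymocyte array was -0.07 relative to the highest T-ALL array, so these groups overlapped, and DN and DP overlapped as well (-0.19). The gap between thymocytes and T-ALL was 0.45 after quantile normalization and 0.76 with normexp background correction. In the authors' deposited value table, on a log2 scale with an unstated reference, the means were 11.06 ± 0.12 for DN, 11.88 ± 0.18 for DP, 9.74 ± 0.97 for ES and 9.73 ± 0.53 for LS (SD, n = 3), with M295 at 7.22. There the gap between thymocytes and T-ALL was 0.43 and that between T-ALL and M295 was 1.42.

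The fall of miR-128-3p stood within broad change. Between T-ALL and thymocytes 131 of 229 miRNAs were called at a Benjamini-Hochberg adjusted limma p under 0.05 (57.2%), 72 higher and 59 lower, and the median difference was -0.12. In this contrast, which chose miR-128-3p, 9 of the 229 had a more negative difference. Against DP alone 25 had a more negative difference in ES and 25 in LS, and against DN alone 10 and 11. Between DN and DP 67 were called (29.3%), 24 higher in DN (10.5%) and 43 lower (18.8%), and 70 miRNAs had a more negative difference than the -0.38 of miR-128-3p, with a median of 0.15. Between LS and ES 6 were called (2.62%), 5 higher in LS (2.18%) and 1 lower (0.437%), with a median of 0.28. miR-128-3p thus ranked among the larger falls from thymocytes to T-ALL and had a difference below the median between DN and DP.

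**Figure D3:**
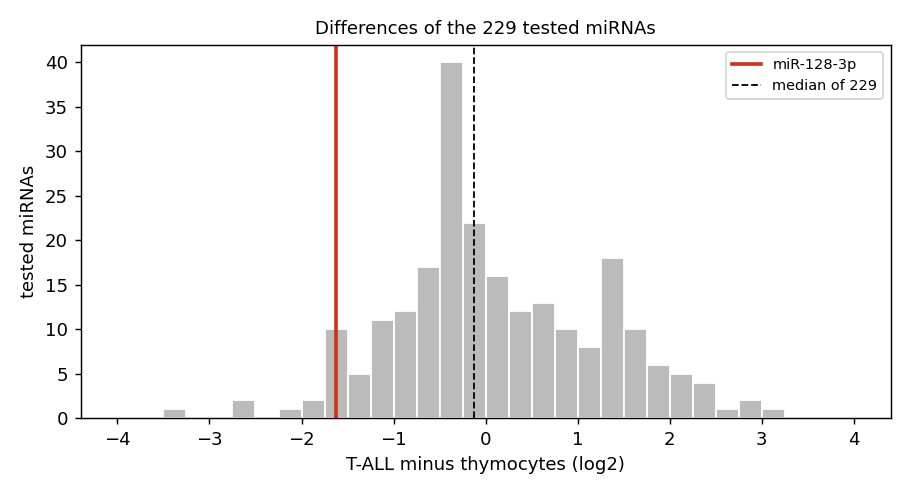
Number of miRNAs (vertical axis) by the log2 difference T-ALL minus thymocytes (horizontal axis) for the 229 tested miRNAs; the red line marks miR-128-3p at -1.63 and the dashed line the median at -0.12. The red line lies in the left tail, with 9 miRNAs further left.

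The separation of its groups can be set beside that of the other miRNAs, by a comparison chosen after the values were seen. All 6 T-ALL arrays were below all 6 thymocyte arrays for 10 of the 229 tested miRNAs (4.37%). The gap of miR-128-3p, 0.80, was the widest of these, followed by miR-30a-5p with 0.41, miR-374c-5p with 0.38 and miR-181d-5p with 0.29. The other 6 were miR-25-3p, miR-181c-5p, miR-296-5p, miR-301a-3p, miR-30e-3p and miR-130b-3p, with gaps of 0.18 down to 0.02. Gaps in the other direction, with T-ALL above thymocytes, were not ranked, and some were wider than 0.80. miR-370-3p was at most -5.59 on thymocyte arrays and at least -4.47 on T-ALL arrays. For miR-5109 these levels were 1.94 and 2.79.

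The further step to M295 was shared by 1 of these. M295 was also below every T-ALL array for 2 of the 229 miRNAs (0.873%), miR-128-3p and miR-301a-3p. For miR-301a-3p the steps were small, with a gap of 0.04 between thymocytes and T-ALL and an M295 level -0.46 from the T-ALL mean. For 7 of the 10, M295 lay inside the range of the T-ALL arrays, and miR-296-5p was higher in M295 than in primary T-ALL by 1.22. The mirror order also occurred, with all T-ALL arrays above the thymocyte arrays and M295 above every T-ALL array. Examples are miR-2137, miR-449a-5p and miR-342-3p, and the share of miRNAs with that order was not counted.

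Against the primary T-ALL mean, 5 of the 229 miRNAs were lower in M295 by more than miR-128-3p. These were miR-451 (-4.60), miR-669f-3p (-3.00), miR-223-3p (-2.59), miR-467a-3p (-2.56) and miR-3474 (-2.43). None of the 5 was above background in M295, so their levels there are not measured, whereas miR-128-3p was still measured there. More than 4-fold lower levels in M295 were seen for 11 of 229 miRNAs (4.8%), and the median over all 229 was -0.24.

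The seed relatives did not have this order. miR-27a-3p, which is cut from the Mir23a cluster, had levels of -1.74, -1.71 and -1.82 in DN and -2.01, -1.98 and -2.49 in DP. In ES it had -2.82, -2.38 and -1.31, and in LS -5.13, -3.20 and -2.76, with M295 at -3.30. ES 3, the lowest primary array for miR-128-3p, was the highest for miR-27a-3p, and M295 lay inside the LS range. The difference of miR-27a-3p between T-ALL and thymocytes was -0.97 (SE 0.40) and did not pass the test (limma adjusted p = 0.0544). It passed in 6 of 22 other settings, among them quantile normalization (0.0273), the authors' value table (0.0205) and the fit without ES 3 (0.0201).

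miR-27b-3p, from the Mir23b cluster, had levels of -2.47, -2.34 and -2.48 in DN and -2.96, -2.86 and -3.14 in DP. In ES it had -2.82, -1.69 and -2.93, and in LS -2.51, -1.24 and -1.60. M295 was lowest, at -3.52, but the primary T-ALL arrays were not below the thymocytes. T-ALL minus thymocytes was 0.58 (SE 0.26) with a limma adjusted p of 0.0796, and it passed without ES 3 (0.0402), without LS 1 (0.0216) and within slide 2 (0.0435). Neither relative was called between DN and DP (limma adjusted p = 0.639 for miR-27a-3p and 0.310 for miR-27b-3p) or between LS and ES (0.228 and 0.379). LS minus ES passed for miR-27a-3p with the percentile over all mouse miRNAs (limma adjusted p = 0.0427) and within slide 2 (0.0180). For miR-27b-3p both comparisons passed within slide 2 (0.0347 for DN minus DP and 0.0121 for LS minus ES), where ES and LS have 1 array each.

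**Figure D4:**
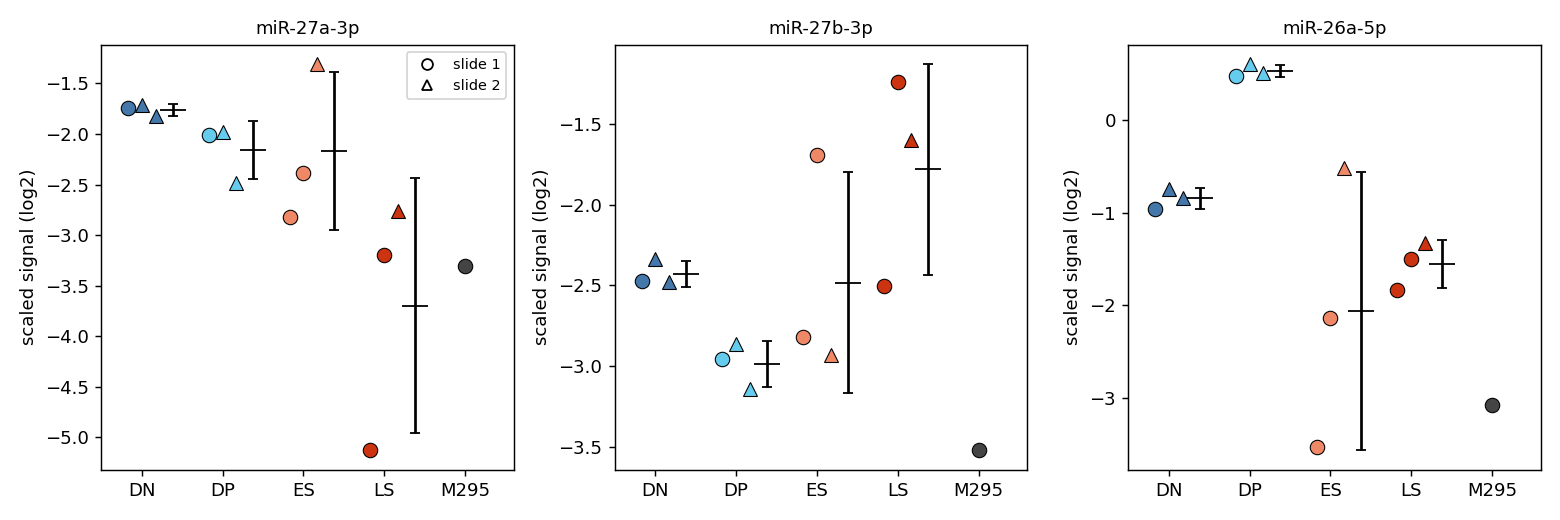
Scaled signal (log2, vertical axes with separate scales) of miR-27a-3p, miR-27b-3p and miR-26a-5p by group; circles are arrays of slide 1, triangles of slide 2, crosses with bars are means ± SD (n = 3). miR-27b-3p has its lowest array in M295, as miR-128-3p has, but its LS arrays, at -2.51 to -1.24, are not below the thymocytes.

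miR-128-3p belongs to the miRNAs described as oncogenic in T-ALL, and so do the 5 of a published mouse screen. Of these 5, 1 was called lower in T-ALL than in thymocytes and 0 higher, beside 25.8% lower and 31.4% higher of all tested miRNAs, and their median difference was -0.26. miR-26a-5p fell by 1.65 (SE 0.40, limma adjusted p = 0.00612). The call on miR-26a-5p was lost without the filter on dim miRNAs (limma adjusted p = 0.0551). It was also lost within slide 1, where DN 1 and DP 1 are the only thymocyte arrays and the difference was -2.01. In the main fit the difference of miR-26a-5p was near that of miR-128-3p. The miR-26a-5p arrays, however, were at -3.53, -2.14 and -0.52 in ES and -1.84, -1.50 and -1.32 in LS. ES 3 was thus the highest T-ALL array for miR-26a-5p and lay above the DN arrays, at -0.96, -0.74 and -0.83.

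The 4 others did not pass the test. miR-19b-3p and miR-20a-5p, of the miR-17-92 cluster, differed by -0.18 and -0.26 (limma adjusted p = 0.580 and 0.444). miR-92a-3p of the same cluster differed by -0.43 (0.122). miR-223-3p differed by 1.11 (0.521), and its level came from ES 3. All 4 passed within slide 2 (limma adjusted p = 0.0265, 0.0101, 0.00358 and 0.000212), where ES and LS have 1 array each and the spread comes from the DN and DP pairs alone.

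Between DN and DP and between LS and ES 0 of the 5 oncogenic miRNAs were called in limma, beside 29.3% and 2.62% of all tested, with medians of 0.93 and 0.07. miR-26a-5p differed by -1.38 between DN and DP and passed the test in 5 other settings, among them the fit without ES 3 (limma adjusted p = 0.00491). Without ES 3 the DN minus DP difference also passed for miR-19b-3p (limma adjusted p = 0.00167), miR-20a-5p (0.000551) and miR-223-3p (0.000321). That of miR-20a-5p passed without ES 2 as well (0.0394). No ES array enters DN minus DP, so these differences were the same as in the main fit. What changed was the spread, which is pooled over the groups. LS minus ES passed for miR-26a-5p without ES 3 (limma adjusted p = 0.0268). Within slide 2 further members passed in LS minus ES, where ES and LS have 1 array each, but not in DN minus DP.

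Of 12 miRNAs described as tumour-suppressive in T-ALL, 8 were tested, and 1 was called higher and 1 lower in T-ALL, with a median of 0.31. Of all tested miRNAs 31.4% were called higher and 25.8% lower. miR-709, which was reported to restrain Notch1-driven T-ALL, rose by 1.37 (SE 0.29, limma adjusted p = 0.0034). miR-155-5p, a miRNA of activated lymphocytes, fell by 2.62 (SE 0.77, limma adjusted p = 0.0146). miR-155-5p was above background on 1 of 3 ES and 1 of 3 LS arrays, and its call was lost without the filter (limma adjusted p = 0.124). The call was also lost within slide 1, where DN 1 and DP 1 are the only thymocyte arrays and the difference was -3.13. Between DN and DP 2 were called, both higher in DN, beside 10.5% of all tested miRNAs, namely miR-29b-3p by 1.69 (limma adjusted p = 0.0113) and miR-451 by 5.63 (0.0047). The call on miR-29b-3p was lost without DP 3 (limma adjusted p = 0.0589) and without the filter (0.0822). Within slide 1, where DN 1 and DP 1 are the only thymocyte arrays, both calls were lost. The differences there were 1.54 for miR-29b-3p and 5.43 for miR-451. Without ES 3 the DN minus DP difference also passed in limma for miR-29a-3p (adjusted p = 0.00195), miR-29c-3p (0.0146) and miR-31-5p (0.0496). Without ES 2 it passed for miR-150-5p (0.0394). These differences too were the same as in the main fit, and the pooled spread had changed.

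Between LS and ES 0 of the 8 were called in limma, beside 2.62% of all tested miRNAs. With the percentile over all mouse miRNAs, miR-29a-3p, miR-29b-3p and miR-29c-3p were called lower in LS (limma adjusted p = 0.0427, 0.0427 and 0.0488). That percentile falls near background. With that scaling miR-29b-3p was also called higher in T-ALL than in thymocytes (0.0280) and miR-29a-3p higher in DN than in DP (0.00483), and the former passed without ES 1 as well (0.0429). Within slide 2, whose spread comes from the DN and DP pairs alone, further members passed in all 3 comparisons.

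Marker miRNAs of cell types bear on what each sample held. miR-142-3p and miR-142-5p, found throughout blood cells, were above background on every array. miR-181a-5p and miR-181b-5p, abundant in DP thymocytes, were too, with a summed linear level of 4.75 to 5.21 in DP, 0.988 to 1.15 in DN, 0.387 to 1.48 in ES, 1.03 to 1.72 in LS and 0.337 in M295. This sum is highest in DP and lowest in M295, as miR-128-3p is, but DN lies inside the T-ALL range, where miR-128-3p in DN does not. Both markers were called lower in T-ALL than in thymocytes, beside 25.8% of all tested miRNAs. The differences were -1.50 for miR-181a-5p and -0.82 for miR-181b-5p (limma adjusted p = 0.0071 and 0.0056).

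Markers of other cells did not order the groups as miR-128-3p did. The erythroid pair miR-451 and miR-144-3p summed to 0.751 to 1.01 in DN and 0.0166 to 0.0274 in DP, and to 0.0210 to 0.388 in ES and 0.0901 to 1.60 in LS. The myeloid marker miR-223-3p was above background on 3 DN arrays and 0 DP arrays, on ES 3 alone among T-ALL, and not in M295. Of 5 endothelial and stromal markers, 1 was above background, miR-126-3p, in DN. Of 6 epithelial markers 0 were above background in thymocytes, 2 on 1 or more ES arrays, 3 on 1 or more LS arrays and 2 in M295. The part of such cells in the miR-128-3p differences was not tested.

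Brain markers were examined because miR-128-3p is brain-enriched. Of 9, miR-219-5p alone was above background on all primary arrays. miR-124-3p, miR-137-3p, miR-138-5p, miR-153-3p and miR-129-5p were above background on no array. The summed level of the 9 was 0.0891 to 0.104 in thymocytes, 0.0892 to 0.357 in primary T-ALL and 0.711 in M295. Markers below the floor of -7.59 enter this sum at the floor, and in thymocytes miR-219-5p alone was above background. In M295 miR-9-5p (-1.69), miR-9-3p (-1.76), miR-132-3p and miR-219-5p were above background. The sum was highest where miR-128-3p was lowest.

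Across the 12 primary arrays, the miRNA with the pattern most like that of miR-128-3p was miR-25-3p, with a Pearson r of 0.96 and a Spearman rho of 0.97. miR-181d-5p (r 0.90), miR-181c-5p (0.84), miR-374c-5p (0.84) and let-7d-5p (0.77) followed, against a median r of 0.098 over the 228 other tested miRNAs. The 12 arrays come from 4 groups and share the scaling, so these values describe the group pattern and have no test. After group means were removed, r was 0.90 for miR-25-3p and 0.78 for miR-181d-5p but 0.05 for miR-181c-5p. With all arrays kept, miR-25-3p thus followed miR-128-3p also among arrays of a group, while miR-181c-5p followed it through the group means. ES 3, lowest for miR-128-3p, was also lowest in ES for miR-25-3p (-0.71, against -0.03 on ES 1 and -0.02 on ES 2). For miR-181d-5p the same arrays had -4.27, -3.36 and -3.29. No within-group r was computed without ES 3. Among all 228, let-7d-5p ranked 43 after quantile normalization and 53 in the authors' value table, while miR-25-3p ranked 1 in both.

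miR-25-3p, from the miR-106b-25 cluster, had a mean of 0.23 in DN and 0.54 in DP and of -0.25 in ES and -0.22 in LS, so its steps were smaller than those of miR-128-3p. The order of the groups was the same. The likeness ended at M295: its difference from primary T-ALL was -0.33 for miR-25-3p, 0.13 for miR-181d-5p, -0.28 for miR-181c-5p, -0.18 for miR-374c-5p and -0.49 for let-7d-5p, against -2.35 for miR-128-3p.

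The most opposed miRNA was miR-342-3p, with an r of -0.98 and a rho of -0.96, and an r of -0.94 within groups. It is a lymphocyte miRNA from an intron of Evl. Its thymocyte means were -3.92 in DN and -4.80 in DP and its T-ALL means -2.34 in ES and -2.40 in LS, with M295 at -1.50, so it rose where miR-128-3p fell and was lowest in DP. miR-1895 and miR-2137 were next, each with an r of -0.94. In M295 miR-342-3p was 0.87 and miR-2137 3.79 above the primary T-ALL mean, whereas miR-1895 differed from it by -0.80.

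**Figure D5:**
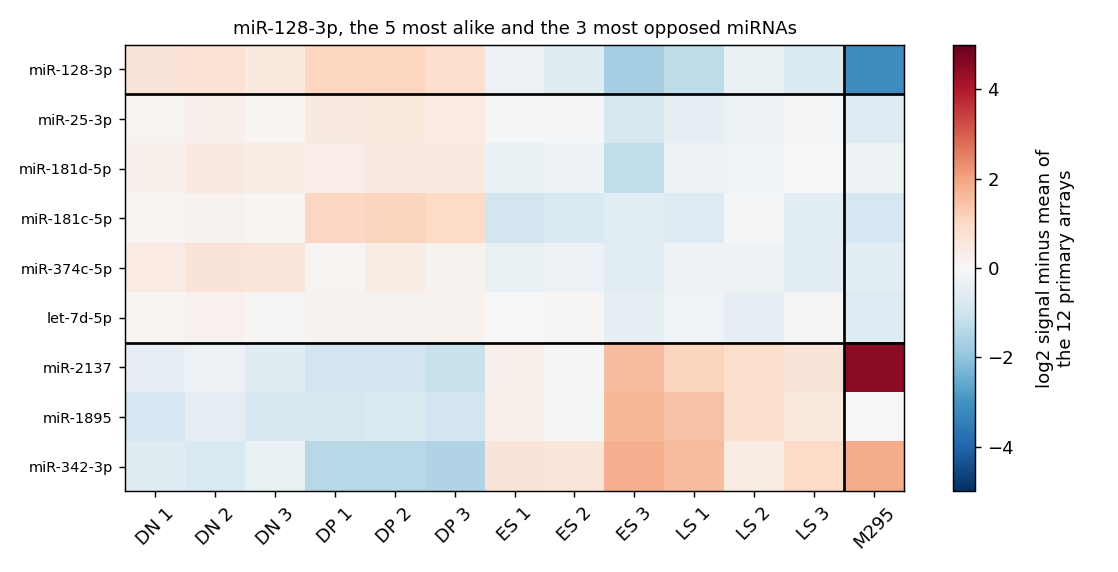
Colours give the log2 signal of each miRNA minus its mean over the 12 primary arrays (scale at right), for miR-128-3p, the 5 miRNAs with the highest and the 3 with the lowest Pearson r to it (rows) on the 13 arrays (columns); M295 was not used to choose the rows. The 5 alike miRNAs are mostly red in thymocytes and mostly blue in primary T-ALL, faintly so for let-7d-5p, and none of them is as deep blue in M295 as miR-128-3p.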

How the data were processed

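Arrays were read in Agilent Feature Extraction 10.7.3.1, per the file headers. The deposited scanner files give a background-subtracted fluorescence intensity per spot, a total intensity per miRNA and other marks (outlier, saturated, well above background), with no scaling between arrays. The authors' deposited values for the same arrays are log2 values: within an array they rank miRNAs as the total intensity does, and the median of every column is 3.29. RMA, affy, MAS5 and GCOS stand in the submitters' processing notes, with no role.

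Of 49324 spots per array, control and outlier spots were left out. Outliers made up 4.03 to 8.60% of the spots that were not controls. Mean signals per probe, then per miRNA, were divided by the array's 75th percentile over 108 miRNAs, floored at -7.59 and put on the log2 scale. A miRNA was above background when 50% or more of a probe's kept spots were marked so. The 12 primary arrays were fitted together, with 1 mean per group, in limma 3.58.1 under R 4.3.3 (R package data.table, version 1.17.8), which was tested on simulated data. p-values were adjusted by Benjamini-Hochberg over 229 miRNAs. M295, with 1 array, was left out of the fit. The number of arrays limits the precision. Named miRNAs are the seed relatives, the lists of oncogenic, tumour-suppressive and marker miRNAs, and the 5 most and 3 least alike by Pearson r. miR-128-3p and the lists were chosen with earlier results of these data known. Alternatives were the background correction, the scaling, the filter, the slide, the value table and leaving out each array.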

Additional observations from a re-analysis of the deposited data

How the results depend on the processing

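miR-128-3p remained lower in T-ALL than in thymocytes in all 23 settings (-1.97 to -1.43) and lower in DN than in DP (-0.82 to -0.08), and M295 was below the T-ALL mean in the 14 settings that give it (-3.14 to -2.10). LS minus ES ran from -0.65 to 0.97 and was below 0 in 6 of 23. The number of arrays, 3 per group, limits all of this, and 1 array limits M295.

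With the percentile over all mouse miRNAs, ES minus DP was -1.32, LS minus DN -1.90, LS minus ES -0.65 and M295 minus T-ALL -3.14. That percentile falls near background. That scaling moved the median of all tested miRNAs from 0.28 to -0.38 in LS minus ES and from 0.15 to 0.45 in DN minus DP, where it called 29 higher and 29 lower against 24 and 43. Relative to these medians the LS difference from ES stayed below 0. Quantile normalization moved the median of T-ALL minus thymocytes from -0.12 to -0.26. In the authors' value table DN minus DP was -0.82. Within slide 2, which has 1 ES and 1 LS array, ES minus DP was -2.63, ES minus DN -2.28 and LS minus ES 0.97; within slide 1 the last was -0.35.

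Counts called in limma moved with the samples used. T-ALL against thymocytes fell from 131 to 30 within slide 1. DN against DP went from 67 to 42 with normexp, 18 within slide 1, 123 within slide 2, and 44 to 101 when arrays were left out (44 without DP 3, 101 without ES 3). LS against ES went from 6 to 3 with normexp, 2 with quantile normalization, 3 with a slide block, 114 within slide 2 (1 array against 1, with the spread of the DN and DP pairs alone), and 1 to 55 when arrays were left out (1 without LS 1, 55 without ES 3). It was 0 within slide 1 and 0 without the filter, where 56 and 42 miRNAs had an unadjusted limma p under 0.05. Within slide 2, LS minus ES turned negative for miR-26a-5p (-0.80) and miR-451 (-2.03). Leaving out an ES array does not alter the DN minus DP differences, so those counts moved through the pooled spread. The causes of the other shifts were not tested.

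Without each array in turn, T-ALL minus thymocytes was -1.77 to -1.43, ES minus DP -2.13 to -1.46, LS minus DP -1.99 to -1.52, ES minus DN -1.76 to -1.08, LS minus DN -1.61 to -1.14, DN minus DP -0.45 to -0.31, LS minus ES -0.32 to 0.36 and M295 minus T-ALL -2.52 to -2.24, and 110 to 154 miRNAs were called between T-ALL and thymocytes.

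With the replicate block, T-ALL minus thymocytes was again -1.63 for miR-128-3p, and 125, 61 and 3 miRNAs were called in the 3 comparisons. The numbers do not pair the arrays: 6 of 18 same-numbered pairs had a correlation of deviations over 0.1 (-0.34 to 0.50), and 5 of 12 arrays correlated best with their own number.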
